A study of Homo sapiens with 112 samples.

Results

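The expression of 40 ribosome biogenesis factors, genes whose products build ribosomes, was followed in VCaP and LAPC4, 2 established prostate cancer lines. They were taken by gene symbol from a list of such factors, out of 58684 genes in the expression table, and had to pass a minimum of 10 reads in 4 or more libraries of a line. All 40 passed this filter in VCaP, where 19266 genes passed, and in LAPC4, where 18204 genes passed. Both lines respond to androgens, and VCaP cells carry a fusion of ERG with an androgen-driven promoter. Before treatment, the cells spent 2 days in medium with charcoal-stripped serum, which holds little hormone. They then received DMSO as vehicle, 1 nM of the synthetic androgen R1881, or 1 nM R1881 together with darolutamide at 500 nM or at 2 µM. Darolutamide is an antiandrogen, and no group received it without R1881. RNA was taken after 8 h or 22 h. In VCaP there were 10 DMSO libraries at 8 h and 8 at 22 h, 10 and 9 with R1881, and, at both times, 4 with 500 nM and 5 with 2 µM darolutamide. In LAPC4 there were 10 DMSO libraries at 8 h and 7 at 22 h, 10 with R1881 at either time, and 5 with each dose at either time.

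The gene counts of the 112 libraries summed to between 12188455 and 25201678 reads. The luminal markers KRT8, KRT18 and HOXB13 held at least 2833, 2222 and 2289 reads in each VCaP library and at least 6255, 4336 and 3206 in each LAPC4 library, and KLK3 at least 230 and 182. ERG ranged from 123 to 983 CPM (counts scaled to the library size) in VCaP and from 0 to 0.0534 CPM in LAPC4. Fibroblast markers summed to at most 2.01 CPM, leukocyte markers to at most 0.4 CPM and endothelial markers to at most 3.33 CPM. In LAPC4, the DMSO and R1881 replicates 1 to 5 differed from the higher-numbered ones at 3929 of 18204 genes, 8 of them members, whereas in VCaP no gene passed this test at an adjusted p under 0.05 in edgeR and 916 had an unadjusted p under 0.05.

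Ribosomes are assembled in the nucleolus, where RNA polymerase I copies the ribosomal RNA genes into a long precursor. The precursor is modified under the guidance of small nucleolar RNAs, by box C/D particles (methylation) and box H/ACA particles (pseudouridylation), and is then cut and folded into the small and the large subunit by many further factors. The transcription factor MYC, which binds DNA as a dimer with MAX at the hexamer CACGTG (the E-box), is known to raise the expression of many of these factors. The members were arranged by role. They comprised 3 core proteins of the box C/D particle, 4 of the box H/ACA particle, 5 nucleolar RNA-binding proteins and chaperones, 5 subunits or factors of RNA polymerase I, 13 factors of small-subunit processing and 10 of large-subunit processing.

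RefSeq promoter sequences of the GRCh38.p14 assembly, each with 250 bases before and 50 after an annotated start, matched 33 of the 40 members in 42 windows. The E-box CACGTG, which reads the same on both strands, occurred in 13 of 42 windows (31%), against 2548 of 35116 windows of all genes (7.26%) and 1430 of 15738 windows of the genes tested in VCaP (9.09%). The 7-base motif CCGGAAG, of the kind that ETS factors bind, was found on either strand in 14 of 42 windows (33.3%), against 15.8% of the windows of tested genes. The androgen response element, searched on both strands as a pair of inverted AGAACA half-sites 3 bases apart, had no match in these 42 windows and 1 match in all 35116. These are matches of letters and not measured binding sites. The E-box windows of FBL, GAR1, LYAR, BYSL and NOP10 are shown with the flanking bases, because these are the members with values by library below whose promoters hold the motif, and because NOP10 rose with R1881 in VCaP at 22 h where the other 4 fell (the fall of BYSL, -0.17, was lost with control replicates 6 and above alone, adjusted p = 0.577). Each line is read 5′ to 3′ on the strand of the gene, and capitals mark the E-box:
FBL: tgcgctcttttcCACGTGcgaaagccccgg
GAR1: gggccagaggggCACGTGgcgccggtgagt
LYAR: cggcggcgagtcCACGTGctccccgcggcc
BYSL: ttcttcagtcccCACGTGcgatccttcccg
NOP10, distal: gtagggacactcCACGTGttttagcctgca
NOP10, proximal: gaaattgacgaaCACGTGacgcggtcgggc
The FBL window lies at chr19:39846356-39846385 on the minus strand, and its E-box begins 6 bases downstream of the start (the start base counted as 0). The GAR1 window (chr4:109815781-109815810, plus strand) holds the E-box 31 bases downstream of an annotated start. The promoter window of a GAR1 start further upstream (chr4:109815260-109815559) holds no E-box. The BYSL window (chr6:41921515-41921544, plus strand) holds the E-box 28 bases downstream. The LYAR window is at chr4:4290068-4290097 on the minus strand, upstream of an annotated start. It lies downstream of another annotated LYAR start, whose promoter window (chr4:4290105-4290404) holds no E-box. The E-boxes of the NOP10 windows, chr15:34343289-34343318 and chr15:34343130-34343159 on the minus strand, are upstream of the start as well.

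To compare levels between genes, CPM were divided by the exon length (RPKM). In VCaP cells with DMSO at 22 h, the most abundant members were NCL (82.3 ± 2.52 RPKM, SD, n = 8), which binds the precursor RNA, NOLC1 (80.1 ± 2.76), a snoRNP chaperone, GNL3 (80 ± 4.18), the GTPase nucleostemin, NPM1 (80 ± 3.52), a histone and ribosome chaperone, and FBL (78.8 ± 4.1), the methyltransferase of the box C/D particle. These 5 did not differ beyond their spread between libraries. The order of the members depends on the length used, which was 8.919 kb for NCL, 8.311 kb for NPM1, 3.238 kb for GNL3 and 2.138 kb for FBL. In CPM, NPM1 was at 633 to 721 and FBL at 157 to 182 in these libraries. The median member reached 12.6 RPKM, and the lowest were UTP15 (1.97 ± 0.18) and PPAN (0.526 ± 0.106). In LAPC4 cells with DMSO at 22 h the order began with NCL (60.7 ± 1.9, n = 7), GNL3 (54.5 ± 2.76), NPM1 (42.1 ± 2.01) and FBL (36.4 ± 1.71), the median was 11.1 RPKM, and PPAN was again lowest (0.481 ± 0.0874). PPAN held as few as 8 reads in a library and shares 47.6% of its exon bases with the read-through gene PPAN-P2RY11 on the same strand. NOP2 shares 54.4% with an unnamed gene on its strand that is not in the table. NPM1 has 49 named pseudogenes, 45 of them in the table, and RRN3 has 4, of which 3 are in the table. NOP56 and NIP7 have 3 each, NHP2, NCL, DDX10 and PES1 have 2 each, and LYAR has 1, all in the table. Reads of PPAN, NOP2 and the genes with pseudogenes may be split between copies. On the opposite strand, an annotated gene covers 28% of the exon bases of NHP2, 23.9% of TSR1, 23.1% of HEATR1, 20.7% of NOP14, 20.4% of NOB1 and 18.4% of NIP7, and smaller shares of others, so these counts depend on how strand was handled.

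In VCaP cells, R1881 lowered most of the ribosome biogenesis factors at both time points. At 8 h, 36 of 40 were lower and 2 higher than with DMSO, with a median log2 fold change of -0.53 (edgeR quasi-likelihood test, Benjamini-Hochberg adjusted p under 0.05 over all 19266 genes). At 22 h, 30 were lower and 3 higher, with a median of -0.36. R1881 altered much of the transcriptome of VCaP, so these counts stand against a high background of 66.9% of all tested genes called at 8 h (32.8% higher, 34.1% lower) and 77.4% at 22 h (37.4% higher, 40% lower), with a median over all genes of -0.03 at both times. The libraries give shares of the counted reads, and fewer cells expressing a gene cannot be told apart from less of its RNA per cell. With library totals in place of the TMM factors, the median of all genes moved to -0.18 at 8 h and -0.14 at 22 h, and that of the members to -0.68 and -0.47. At 8 h, the levels of 30 members were lower in each R1881 library than in each DMSO library, as were those of 23 at 22 h. Of all tested genes, 14.6% and 23.3% lay apart in this way.

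**Figure D1:**
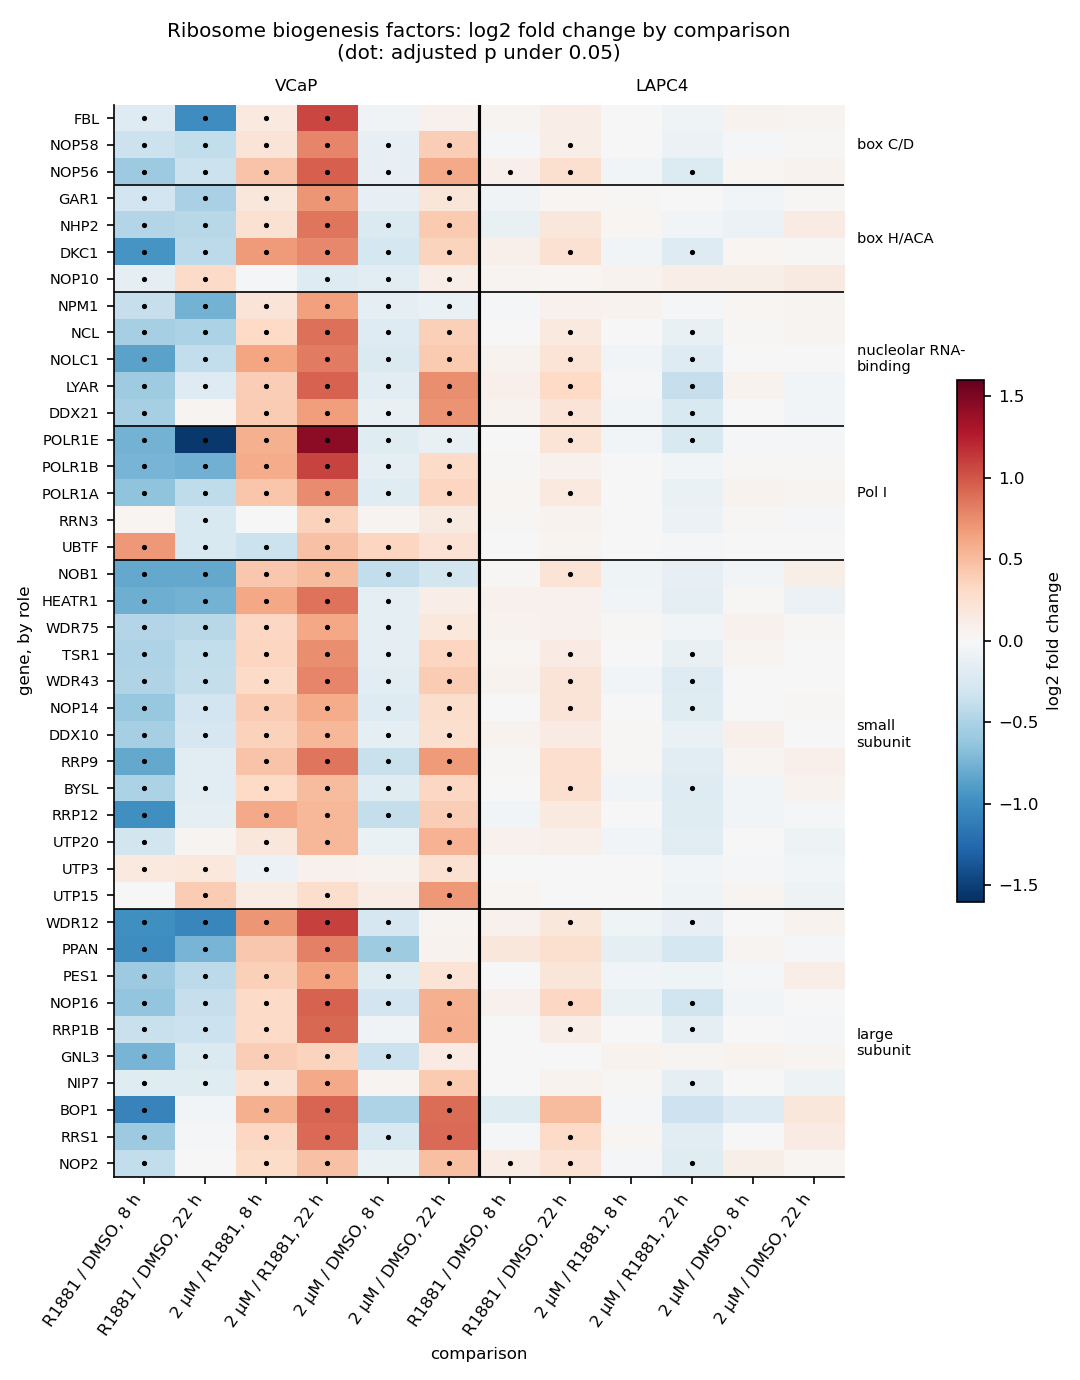
Log2 fold changes of the 40 ribosome biogenesis factors (rows, by role and within a role by the R1881 effect in VCaP at 22 h) in 6 comparisons per cell line (columns); blue is lower, red is higher, and a dot marks an adjusted p under 0.05. In VCaP the R1881 columns are mostly blue and the columns of 2 µM darolutamide against R1881 mostly red, whereas the LAPC4 columns are pale, with 19 rises under R1881 at 22 h.

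All 5 members of the RNA polymerase I group were lower with R1881 at 22 h (40% of all genes lower). POLR1E showed the largest change of the 40. POLR1E (chr9:37485948-37503697, plus strand, GENCODE annotation of GRCh38), a subunit that forms a heterodimer on the enzyme, ranged from 35.2 to 39.7 CPM (median 37.1) in 8 DMSO libraries and from 11.6 to 14.2 CPM (median 12.6) in 9 R1881 libraries. The ranges lay far apart, and the log2 fold change was -1.55 (SE 0.0436, adjusted p = 3.35e-37). POLR1B, the second largest catalytic subunit, fell by 0.77 on the log2 scale and POLR1A, the largest, by 0.41. The initiation factors RRN3 and UBTF, which recruit the polymerase to ribosomal DNA, fell least, by 0.24 each. UBTF went the other way at 8 h, when it rose from 135 to 164 CPM (median 147, DMSO, n = 10) to 221 to 263 CPM (median 236, R1881, n = 10) with no overlap, a log2 fold change of 0.69 (SE 0.0302, adjusted p = 6.33e-28). The change of its R1881 effect from 8 to 22 h was -0.93 (SE 0.0449, adjusted p = 1.97e-25).

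Among the snoRNP proteins, FBL and its partners NOP56 and NOP58 were all lower at 22 h. Of all genes, 77.4% were called in this comparison (40% lower, 37.4% higher), the background for both particles. FBL was at 157 to 182 CPM (median 169) with DMSO and at 77.1 to 91.7 CPM (median 85) with R1881, a fitted level of 0.501 times that with DMSO (SE of the log2 fold change 0.0319, adjusted p = 1.48e-34). The fall of FBL was smaller at 8 h (-0.21), and the 2 effects differed by -0.79 (SE 0.043, adjusted p = 3.49e-23). In the box H/ACA particle, which is needed for pseudouridylation and for telomerase RNA, DKC1, GAR1 and NHP2 were lower and NOP10 was higher at 22 h. GAR1 ranged from 13.8 to 17.4 CPM (median 15.5) with DMSO and from 9.5 to 12.7 CPM (median 11) with R1881 (log2 fold change -0.52, SE 0.0572, adjusted p = 7.37e-12). DKC1, the pseudouridine synthase, fell by 0.95 at 8 h and by 0.42 at 22 h, and its effect at 22 h was the weaker one (difference 0.53, SE 0.0433, adjusted p = 4.45e-16). NOP10 was at 46.8 to 54.7 CPM (median 50) with DMSO and at 59.5 to 67.4 CPM (median 61.9) with R1881 at 22 h, without overlap (log2 fold change 0.31, SE 0.0361, adjusted p = 3.71e-11), but at 8 h it was lower (-0.15, adjusted p = 8e-05).

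Of the 5 RNA-binding proteins and chaperones, 4 were lower at 22 h (40% of all genes) and all 5 at 8 h (34.1%). NPM1 was at 633 to 721 CPM (median 656) with DMSO and at 374 to 418 CPM (median 393) with R1881 at 22 h (log2 fold change -0.76, SE 0.0337, adjusted p = 7.35e-28). The helicase DDX21 was lower at 8 h (-0.53) and had returned at 22 h, when its log2 fold change was 0.04 (adjusted p = 0.282). The difference between both times was 0.58 (SE 0.049, adjusted p = 2.39e-15).

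In the small-subunit group, 11 of 13 members were lower and 1 higher at 8 h (34.1% of all genes lower). At 22 h, 8 were lower and 2 higher, a share called near the 77.4% of all genes (40% lower, 37.4% higher). NOB1, the nuclease that makes the last cut of the small-subunit RNA, was at 26.8 to 35.7 CPM (median 30.9) with DMSO and at 14.2 to 20.6 CPM (median 17.8) with R1881 at 22 h (log2 fold change -0.82, SE 0.0719, adjusted p = 3.15e-15). HEATR1, a component of the early small-subunit processome, fell by 0.76. UTP15 and UTP3, also of the early processome, were higher. UTP15 (chr5:73565443-73583380, plus strand) was at 10.6 to 14.2 CPM (median 12.4) with DMSO and at 15.6 to 18.3 CPM (median 16.4) with R1881, a log2 fold change of 0.41 (SE 0.0552, adjusted p = 2.01e-09) with no overlap of the libraries. UTP3 was at 38 to 44.5 CPM (median 41.9) with DMSO and at 45.3 to 49.8 CPM (median 47.6) with R1881 (0.17, SE 0.0345, adjusted p = 1.13e-05), a call that was lost with library totals as the scale (0.06, adjusted p = 0.0834).

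In the large-subunit group, all 10 members were lower at 8 h (34.1% of all genes) and 7 at 22 h (40%). WDR12 (chr2:202874261-203014798, minus strand), which forms a complex with PES1 and BOP1, was at 43.9 to 52 CPM (median 49.4) with DMSO and at 21 to 26.8 CPM (median 22.9) with R1881 at 22 h (log2 fold change -1.05, SE 0.0466, adjusted p = 8.84e-28). At 8 h it was at 43.7 to 49.4 CPM (median 47) and 19.9 to 27.1 CPM (median 23.9), a log2 fold change of -0.98 that differed from that at 22 h by -0.07 (95% interval -0.19 to 0.05, adjusted p = 0.35). Its partner BOP1 was lower at 8 h (-1.07, SE 0.189, adjusted p = 1.66e-06) but not at 22 h (-0.04, adjusted p = 0.846), a difference of 1.02 (SE 0.276, adjusted p = 0.00116). Over all members, the R1881 effect changed between 8 and 22 h for 25 of 40, towards higher values for 19 and towards lower values for 6, against 60.4% of all tested genes called for such a change (28.1% higher, 32.3% lower).

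**Figure D2:**
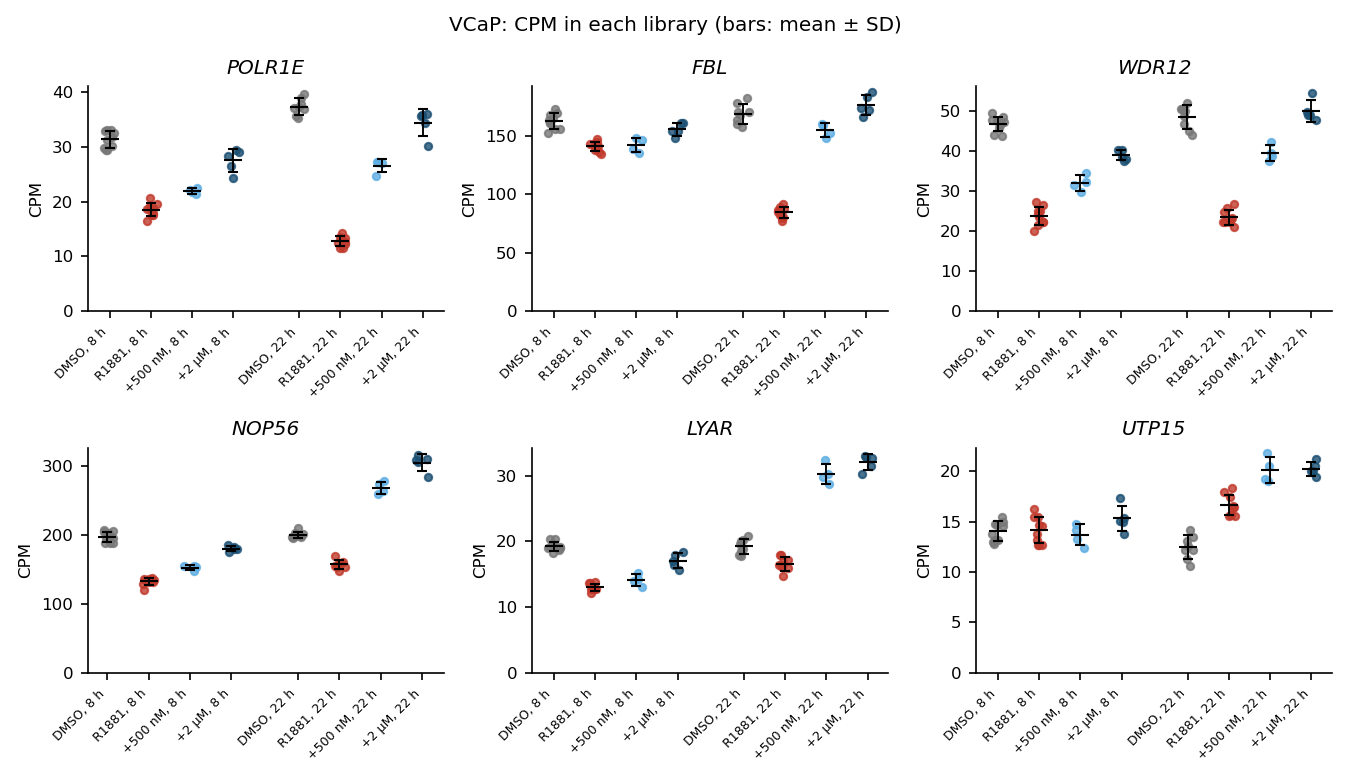
CPM of 6 members in each VCaP library (points) by treatment and time, with the mean and SD of each group. At 22 h, POLR1E, FBL and WDR12 drop with R1881 and return close to DMSO with 2 µM darolutamide, whereas NOP56 and LYAR end well above DMSO. UTP15 rises with R1881 and further with darolutamide at 22 h, while its groups overlap at 8 h.

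Darolutamide raised the members above their level with R1881 alone in VCaP. At 22 h, 38 of 40 were higher and 1 was lower with 2 µM than with R1881, with a median log2 fold change of 0.74, against 66.9% of all genes called (36.1% higher, 30.8% lower). With 500 nM the counts were the same, and the median was 0.54, against 53.0% of all genes called (26.7% higher, 26.4% lower). POLR1E reached 30.2, 34.4, 35.7, 35.8 and 35.9 CPM in the 5 libraries with 2 µM, all above the R1881 range, a log2 fold change of 1.43 (SE 0.0481, adjusted p = 4.99e-33). FBL reached 166, 172, 174, 183 and 187 CPM (1.07, SE 0.0355, adjusted p = 3.33e-33), and WDR12 47.6, 48.8, 49, 49.6 and 54.4 CPM (1.09, SE 0.0517, adjusted p = 4.09e-26). NPM1 was at 575, 591, 624, 630 and 662 CPM and GAR1 at 17.4, 17.9, 18.2, 18.3 and 18.6 CPM, both above every R1881 library. NOP10, which R1881 had raised at 22 h, was the member that fell (-0.21, SE 0.0412, adjusted p = 1.41e-05), and UTP3 did not pass the test (0.07, adjusted p = 0.108). UTP15 rose further, to 19.4, 20, 20, 20.5 and 21.2 CPM. These comparisons share the R1881 libraries with those of R1881 against DMSO.

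At 8 h, darolutamide also raised members above R1881. With 2 µM, 34 members were higher and 2 lower than with R1881 (median 0.34, 52.1% of all genes called, 25.9% higher and 26.2% lower), and with 500 nM 12 were higher and 1 lower (median 0.10, 30.6% of all genes called, 14.9% higher and 15.7% lower). UBTF, which R1881 had raised at 8 h, was lower with either dose (-0.35 and -0.15). Between the doses, 25 members were higher and 1 lower with 2 µM at 8 h (17.6% of all genes called, 7.53% higher and 10.0% lower), and 23 were higher at 22 h (20.2% of all genes called, 10.4% higher and 9.75% lower), with median differences of 0.25 and 0.18. The count at 22 h dropped to 14 without replicate 1 or replicate 4 of the 500 nM group and to 15 without replicate 2 of the 2 µM group. At 22 h the difference between doses was largest for POLR1E (0.37, SE 0.0573, adjusted p = 8.6e-07), whereas that of LYAR, a nucleolar zinc finger protein, did not pass the test (0.08, 95% interval -0.02 to 0.18, adjusted p = 0.29).

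Against DMSO, the members lay on opposite sides at the 2 times. With R1881 plus 2 µM darolutamide, 29 of 40 were lower and 1 higher than with DMSO at 8 h (median -0.17, against 27.5% of all genes called, 15.4% higher and 12% lower), and 33 were higher and 3 lower at 22 h (median 0.34, against 59.0% called, 30.5% higher and 28.5% lower). The shift between the times was itself tested, and 34 of 40 members shifted upwards and 0 downwards (median 0.53), against 20.7% of all genes upwards and 21.1% downwards. This last comparison and those of 500 nM against DMSO were added after the other values had been seen. With 500 nM, 36 members were lower and 1 higher than with DMSO at 8 h (median -0.42, 44.9% of all genes called, 23.7% higher and 21.2% lower), and 23 were higher and 6 lower at 22 h (median 0.18, 62.7% of all genes called, 31.9% higher and 30.8% lower). DMSO itself moved little between the times, with 3 members higher and 9 lower at 22 h than at 8 h (median -0.01, 29.8% of all genes called, 15.9% higher and 13.9% lower).

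**Figure D3:**
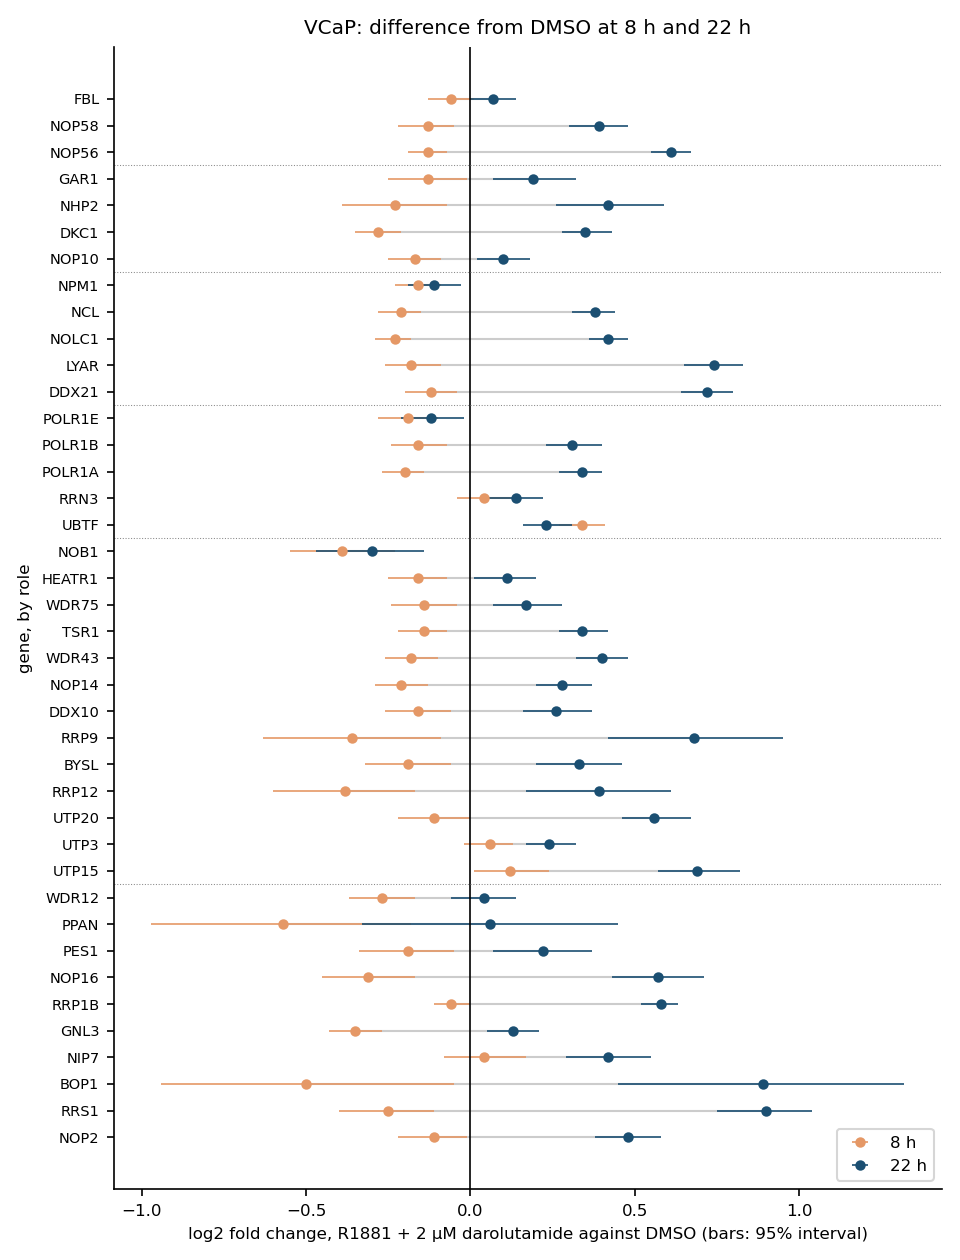
Log2 fold change of R1881 plus 2 µM darolutamide against DMSO in VCaP at 8 h (orange) and 22 h (blue) for the 40 members by role, with 95% intervals. Most orange points lie left of 0 (29 called lower) and most blue points right of it (33 called higher), with NOB1, NPM1 and POLR1E left of 0 at both times.

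The excess over DMSO at 22 h was largest for RRS1, BOP1, LYAR, DDX21 and UTP15. The libraries of BOP1 overlapped, at 9.19 to 25.2 CPM with DMSO and 23 to 48.5 CPM with 2 µM. RRS1, an assembly factor of the large subunit, had a log2 fold change of 0.90 (SE 0.0757, adjusted p = 2.34e-15) and rose from 12.8 to 15.3 CPM (median 13.6) with DMSO to 22.5 to 30.3 CPM (median 25.1) with 2 µM. LYAR was at 17.8 to 20.8 CPM (median 19.3) with DMSO, at 14.7 to 18 CPM (median 16.4) with R1881, and at 30.3, 31.5, 32.8, 32.9 and 33 CPM with 2 µM. This was 0.74 above DMSO (SE 0.0439, adjusted p = 2.12e-21), and the shift from 8 h was 0.92 (SE 0.0627, adjusted p = 3.98e-18). NOP56 (chr20:2652593-2658393, plus strand) was at 196 to 210 CPM (median 198) with DMSO and at 285, 306, 309, 310 and 317 CPM with 2 µM, 0.61 above DMSO (SE 0.0297, adjusted p = 4.24e-25), after values 0.13 below it at 8 h. The libraries of the 2 groups did not overlap for 24 members, including LYAR and NOP56, all of them higher with 2 µM, against 18.4% of all tested genes. Several members that R1881 had lowered strongly did not exceed DMSO, but POLR1B, lowered about as much as NPM1, was among the 24. The comparisons of R1881 and of 2 µM darolutamide with DMSO share the DMSO libraries. POLR1E, NOB1 and NPM1 stayed lower than DMSO at 22 h (-0.12, -0.30 and -0.11, adjusted p = 0.0328, 0.00138 and 0.0156), and the differences for FBL (0.07, adjusted p = 0.107) and WDR12 (0.04, adjusted p = 0.506) did not pass the test.

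**Figure D4:**
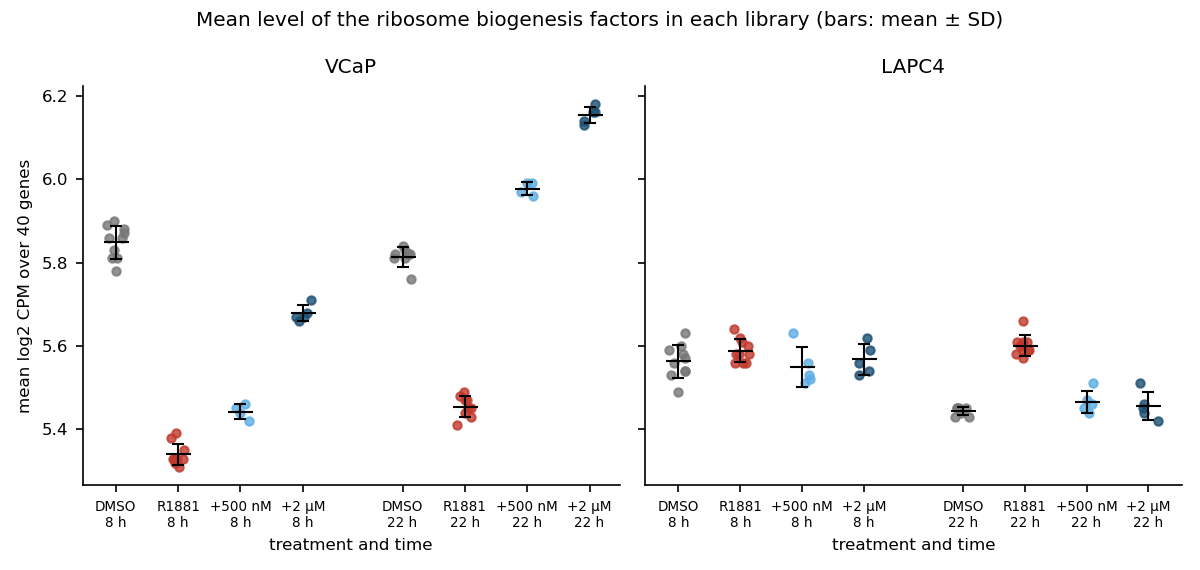
Mean log2 CPM over the 40 members in each library (points) by treatment and time, with the mean and SD of each group, for VCaP (left) and LAPC4 (right). In VCaP the mean drops with R1881 and at 22 h climbs above DMSO with either dose of darolutamide, whereas in LAPC4 the R1881 libraries at 22 h lie above the other groups of that time.

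The mean log2 CPM over the 40 members summarises these steps. In VCaP it was 5.85 ± 0.0398 with DMSO (SD, n = 10), 5.34 ± 0.026 with R1881 (n = 10), 5.44 ± 0.0167 with 500 nM (n = 4) and 5.68 ± 0.0186 with 2 µM (n = 5) at 8 h. At 22 h it was 5.81 ± 0.0237 (n = 8), 5.45 ± 0.025 (n = 9), 5.98 ± 0.013 (n = 4) and 6.16 ± 0.0184 (n = 5), so that the libraries of either dose lay above all DMSO libraries. In LAPC4 the values at 8 h were 5.56 ± 0.0391, 5.59 ± 0.0266, 5.55 ± 0.0453 and 5.57 ± 0.0382 in the same order, which overlapped. At 22 h they were 5.44 ± 0.00684 with DMSO (n = 7), 5.60 ± 0.0242 with R1881 (n = 10), 5.47 ± 0.0296 with 500 nM (n = 5) and 5.46 ± 0.0325 with 2 µM (n = 5).

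In LAPC4 cells, R1881 had the opposite effect and a smaller one. At 22 h, 19 of 40 members were higher and 0 lower than with DMSO, with a median log2 fold change of 0.16, against 13.3% of all 18204 genes called (6.83% higher, 6.45% lower). At 8 h 2 were higher, NOP2 (0.12, adjusted p = 0.0343) and NOP56 (0.08, adjusted p = 0.0403), against 2.64% of all genes called (1.75% higher). The effect grew between the times for 7 members (3.21% of all genes called, 1.80% higher), among them NOP14 (0.20, SE 0.0447, adjusted p = 0.00256) and NOP56 (0.18, SE 0.0348, adjusted p = 0.000355). The DMSO level had moved over the same interval, with 17 members lower at 22 h than at 8 h and 0 higher (median -0.11, 22.1% of all genes called, 11.4% lower), while the mean log2 CPM over the members was 5.59 and 5.60 with R1881 at the 2 times. With DMSO and R1881 replicates 1 to 5 alone, 15 members were higher at 22 h, and with replicates 6 and above alone, which leave 2 DMSO libraries, 6 were, and the median was 0.15 in both. Both calls at 8 h were lost in either subset. With replicates 1 to 5 alone, a change of the effect between the times was called for 1 member.

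NOP56 in LAPC4 was at 90.7 to 97.2 CPM (median 95.9) with DMSO and at 108 to 120 CPM (median 113) with R1881 at 22 h, without overlap (log2 fold change 0.26, SE 0.0259, adjusted p = 4.32e-12). DKC1 was at 103 to 115 CPM (median 105) and 119 to 133 CPM (median 126), again apart (0.24, SE 0.0274, adjusted p = 6.18e-10). Of the 40 members, 7 showed such a separation of all libraries, against 2.3% of all tested genes. LYAR was at 8.31 to 10.5 CPM (median 8.86) and 9.85 to 13.5 CPM (median 11.2), with overlap (0.32, SE 0.062, adjusted p = 8.41e-05). BYSL, a factor of small-subunit export, was at 12.4 to 16.6 CPM (median 14.4) and 16 to 18.9 CPM (median 17.2) (0.25, SE 0.0503, adjusted p = 0.000118). NOP16 was at 9.67 to 11.9 CPM (median 10.8) and 11.5 to 15.8 CPM (median 13.8) (0.33, SE 0.0871, adjusted p = 0.00484). POLR1E, the member with the deepest fall in VCaP, rose from 17.3 to 21.4 CPM (median 19.2) to 20.8 to 25 CPM (median 22.5) (0.22, SE 0.0457, adjusted p = 0.000292). The calls for LYAR, BYSL and NOP16 were lost with replicates 6 and above alone (adjusted p = 0.161, 0.126 and 0.244), and that for NOP16 also with replicates 1 to 5 alone (adjusted p = 0.113). By role, 4 of 5 RNA-binding proteins and chaperones, 5 of 10 large-subunit factors and 5 of 13 small-subunit factors were higher. So were 2 of 5 polymerase I genes, 2 of 3 box C/D proteins and 1 of 4 box H/ACA proteins, against 6.83% of all genes.

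Darolutamide lowered 16 members below R1881 in LAPC4 at 22 h with 2 µM (median -0.13, 10.5% of all genes called, 5.47% lower) and 12 with 500 nM (median -0.13, 5.89% of all genes called, 3.21% lower), with 0 higher. NOP56 was at 93.7, 95.9, 98.1, 99.5 and 100 CPM with 2 µM, below every R1881 library (-0.22, SE 0.0289, adjusted p = 4.41e-08). LYAR was at 7.58, 8.31, 9.13, 9.48 and 9.76 CPM (-0.37, SE 0.0698, adjusted p = 8.61e-05), also below every R1881 library, and DKC1, POLR1E, BYSL and NOP16 fell by 0.21, 0.25, 0.21 and 0.32 on the log2 scale. With R1881 replicates 1 to 5 alone the calls for BYSL and NOP16 were lost (adjusted p = 0.111 and 0.186), and that for NOP16 was lost without replicate 2, 3 or 4 of the 2 µM group (adjusted p = 0.0865, 0.0527 and 0.131). Against DMSO, 0 members passed the test in edgeR with either dose at either time, and DESeq2 called 0 as well. With the replicate number as a block, 1 member was called at 22 h for either dose, and with the block and a GC covariate 5 were called for 2 µM and 2 for 500 nM at 22 h, and 3 for 2 µM at 8 h. With 2 µM, 1 member had an unadjusted p under 0.05 at 22 h and 1 at 8 h, and with 500 nM 3 and 0 did. The medians of these 4 comparisons lay between -0.01 and 0.02, and few genes of any kind were called (0.0165% of all genes with 2 µM and 0.648% with 500 nM at 22 h, 0.0110% and 0.187% at 8 h). At 8 h, 0 members differed between either dose and R1881 (1.54% of all genes called with 2 µM, 0.626% with 500 nM), with 0 and 1 at an unadjusted p under 0.05, and DESeq2 called 0, while the block with the covariate called 5 for 2 µM. Between the doses 0 differed at 22 h and at 8 h (0.258% and 0.0275% of all genes called), 0 had an unadjusted p under 0.05 at either time, and DESeq2 called 0.

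**Figure D5:**
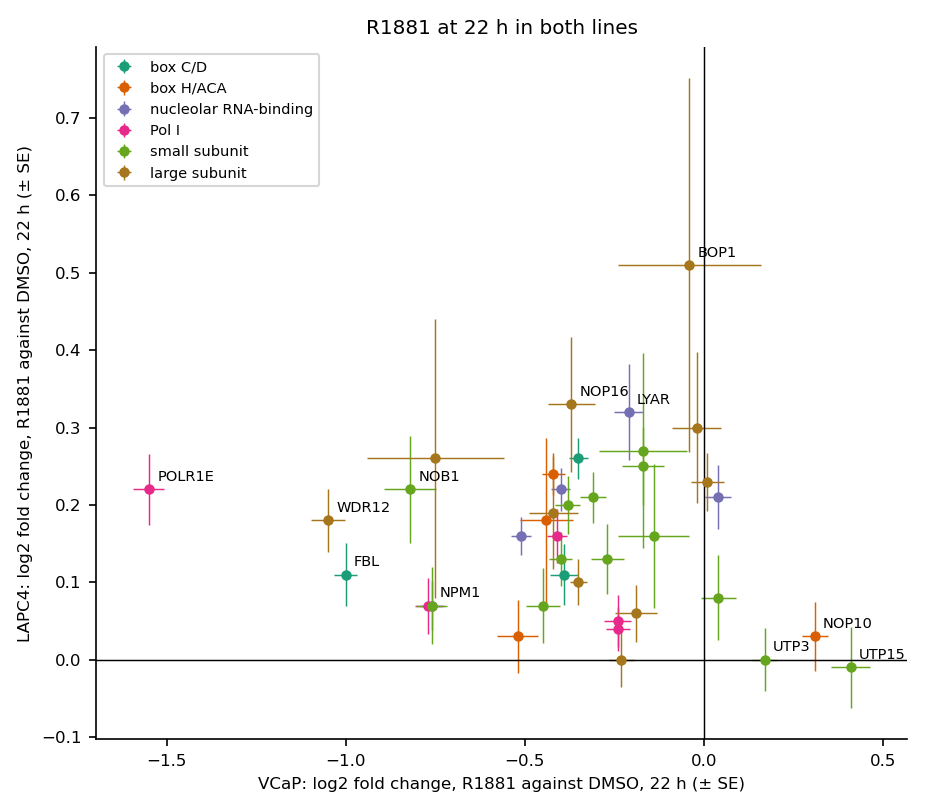
Log2 fold change of R1881 against DMSO at 22 h in VCaP (horizontal axis) and LAPC4 (vertical axis) for each of the 40 members, coloured by role, with standard errors. Most points lie left of 0 and above 0, POLR1E, WDR12 and FBL farthest to the left, and NOP10, UTP15 and UTP3 to the right of 0 near 0 in LAPC4.

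The difference between the lines was tested directly in a joint fit of 16578 genes. The R1881 effect at 22 h was lower in VCaP than in LAPC4 for 35 of 40 members and higher for 2, with a median difference of -0.59, against 68.5% of all genes called (31.6% higher, 36.9% lower). The largest differences were those of POLR1E (-1.83, SE 0.0639, adjusted p = 1.6e-48), WDR12 (-1.29) and FBL (-1.17), and the 2 members with a difference in the other direction were UTP15 (0.36) and NOP10 (0.22). The effect of 2 µM darolutamide against R1881 was higher in VCaP for 38 members and lower for 1 (NOP10), with a median difference of 0.87, against 58.9% of all genes called (30.3% higher, 28.6% lower).

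MYC, which is not a member, fell with R1881 in VCaP and rose in LAPC4. In VCaP at 22 h it was at 291 to 340 CPM with DMSO and at 49 to 60.9 CPM with R1881 (log2 fold change -2.58, SE 0.0636, adjusted p = 5.49e-40), and at 246, 248, 249, 266 and 280 CPM with 2 µM darolutamide, which was 0.33 below DMSO (SE 0.0704, adjusted p = 6.42e-05), whereas 33 members were above DMSO there. With 500 nM it was 0.98 below DMSO (adjusted p = 2.65e-16), where 23 members were above. In LAPC4, MYC was at 11.2 to 13.5 CPM with DMSO and at 18.5 to 24.5 CPM with R1881 at 22 h (0.84, SE 0.0705, adjusted p = 1.97e-14), and 2 µM darolutamide lowered it again (-0.87 against R1881, adjusted p = 5.44e-13). The part of MYC in the members' changes was not tested.

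Other genes of ribosome production were read from lists of their own. Of 100 further biogenesis factors, 71 were lower and 13 higher with R1881 in VCaP at 8 h (median -0.31, 34.1% and 32.8% of all genes). At 22 h, 57 were lower and 20 higher (median -0.17). The share called was near the 77.4% of all genes (40% lower, 37.4% higher). With 2 µM darolutamide, 83 were higher and 7 lower than with R1881 (median 0.47, 36.1% and 30.8% of all genes). Against DMSO, 69 were higher and 8 lower (median 0.29, 30.5% and 28.5% of all genes). In LAPC4, 24 of them were higher and 0 lower with R1881 at 22 h (6.83% of all genes higher). With 2 µM, 15 were lower than with R1881 (5.47% of all genes lower). The 79 ribosomal protein genes, which encode the structural parts, differed from the factors in VCaP. With R1881, 78 of 79 were lower at 22 h (median -0.78, against 40% of all genes lower), whereas the 30 lower at 8 h (median -0.09) were near the background share of 34.1%. With 2 µM darolutamide 76 were higher than with R1881 (median 0.51, 36.1% of all genes higher), yet 57 were lower and 1 was higher than with DMSO at 22 h (median -0.30, 28.5% of all genes lower), where 33 of the 40 biogenesis factors were higher. In LAPC4, 8 of the 79 were higher with 2 µM darolutamide than with R1881 at 22 h (median 0.05), against 5.00% of all genes higher.

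Genes of DNA replication, a readout of cycling cells, followed the members at some steps in VCaP and not at others. With R1881 at 22 h, 15 of 26 were higher and 5 lower than with DMSO (median 0.17), where 30 members were lower. The share of the 26 called was near the 77.4% of all genes (37.4% higher, 40% lower). With 2 µM at 8 h, 15 were higher and 1 lower than with DMSO (median 0.19, 15.4% of all genes higher), where 29 members were lower. At 22 h, all 26 were higher with 2 µM than with DMSO (median 1.41, 30.5% of all genes higher) and than with R1881 (median 1.13, 36.1%), and 26 shifted upwards between 8 and 22 h (median 1.23, 20.7%). With 500 nM 26 were higher than DMSO (median 1.33, 31.9%). In LAPC4, 19 of 26 were higher with R1881 at 22 h (median 0.22, 6.83% of all genes higher), 14 were lower with 2 µM than with R1881 (median -0.16, 5.47% lower), and the median against DMSO was 0.04. The part of cell cycling in the members' changes was not tested.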

How the data were processed

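RNA was sequenced from 112 libraries of VCaP and LAPC4 cells. The authors aligned single-end reads of stranded poly-A libraries with STAR (build GRCh38), used featureCounts to obtain a raw count for each gene, and deposited these counts without normalization. Their gene annotation, how strand was set in counting and how reads with several matches were handled are not given in the sources used here. The study describes 5 biological replicates per condition, and the labels give 4 to 10. Whether same-group libraries came from separate cultures was not stated for each, so p-values measure the spread between these libraries.

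Genes that reached 10 reads in 4 or more libraries of a line were fitted with edgeR 4.0.16 (R 4.3.3): TMM scaling, all 8 groups of a line in 1 fit, quasi-likelihood tests and Benjamini-Hochberg adjustment over all genes tested, with a threshold of 0.05. Both lines entered a joint fit for differences between them. Standard errors were the log2 fold change divided by the root of F. DESeq2 1.42.0, other scalings and filters, a replicate block, a GC covariate and subsets of libraries were alternatives. The tests were checked on simulated counts. CPM of the members and MYC used TMM-scaled library sizes, whereas those of ERG and the marker sums used unscaled library totals. RPKM used the length of all exons of a gene in GENCODE annotation, with overlaps counted once. Values by library were given for the member of each role with the largest R1881 effect at 22 h in each line and for called members that went against the majority; UBTF, RRS1 and other members named beside them were chosen after their values were seen. The members and the other gene lists were chosen with earlier results of these data known. A marker of the luminal list is not reported here.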

Additional observations from a re-analysis of the deposited data

Results flagged for a closer look

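Among 224 groups of libraries examined for the 14 members with values by library, 12 held a library that lay far from the others of its group by Dixon's test, and chance flags about 1 in 20 groups. In VCaP these were NOP56 with R1881 at 8 h (replicate 1, 120 CPM), DKC1 (replicate 1, 113 CPM) and GAR1 (replicate 4, 13.6 CPM) with 500 nM at 8 h, POLR1E with 2 µM (replicate 3, 30.2 CPM) and with 500 nM (replicate 4, 24.7 CPM) at 22 h, and BYSL with R1881 at 22 h (replicate 9, 18.1 CPM). In LAPC4 they were NOP56 (replicate 3, 92 CPM) and UTP3 (replicate 9, 26.8 CPM) with DMSO at 8 h, FBL with 2 µM at 8 h (replicate 4, 81.1 CPM), NOP16 with R1881 at 8 h (replicate 6, 16.8 CPM), NOB1 with 500 nM at 22 h (replicate 1, 35.4 CPM) and BYSL with 2 µM at 22 h (replicate 3, 15.6 CPM).

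Effects were also compared between times and lines by a test of the difference itself. The R1881 effect changed from 8 to 22 h for 25 of 40 members in VCaP, a share near the 60.4% of all genes, and for 7 in LAPC4 (3.21% of all genes). The difference of 2 µM darolutamide plus R1881 from DMSO changed for 34 in VCaP (41.8% of all genes). Between the lines, the R1881 effect at 22 h differed for 37 members (68.5% of all genes) and that of 2 µM darolutamide for 39 (58.9% of all genes). For the members with values by library, the R1881 effect in VCaP minus that in LAPC4 was -1.83 for POLR1E, -1.29 for WDR12, -1.17 for FBL, -1.09 for NOB1, -0.89 for NPM1, -0.76 for NOP16, -0.72 for DKC1, -0.67 for NOP56, -0.61 for GAR1, -0.59 for LYAR and -0.48 for BYSL on the log2 scale. It was 0.36 for UTP15 and 0.22 for NOP10. For UTP3 it was 0.12 and did not pass the test in the joint edgeR fit (adjusted p = 0.059).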

How the results depend on the processing

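No count of called members changed direction, and 397 of the alternative counts lay within 1.5 times the reported count. In VCaP, 500 nM against R1881 at 8 h (13 called) gave 24 with library totals, 22 with the GC covariate and 22 with the replicate block and GC covariate. DMSO at 22 against 8 h in VCaP (12) gave 6 with control replicates 1 to 5 only. In LAPC4 at 22 h, R1881 against DMSO (19) gave 30 with the GC covariate, 29 with block and covariate and 6 with replicates 6 and above only. 2 µM against R1881 there (16) gave 26 with block and covariate, and 500 nM against R1881 (12) gave 22 with the covariate and 21 with both. Against DMSO at 22 h (0 each), 2 µM gave 1 with the replicate block and 5 with block and covariate, and 500 nM gave 1 and 2. At 8 h in LAPC4, block and covariate gave 3 for 2 µM against DMSO and 5 for 2 µM against R1881 (0 each), and R1881 against DMSO (2) gave 0 with replicates 1 to 5, with replicates 6 and above and without the filter, and 1 with only the compared groups. DMSO at 22 against 8 h in LAPC4 (17) gave 30 with the covariate, 29 with both, 10 without the filter and 10 with only the compared groups, and the change of the R1881 effect (7) gave 15, 15, 4 without the filter and 1 with replicates 1 to 5. Leaving out darolutamide replicates moved 2 µM against 500 nM in VCaP at 22 h to 14 to 23. The replicate block alone gave 33 for R1881 and 35 for 2 µM against DMSO in VCaP at 22 h, and the numbers did not pair the libraries (mean correlation -0.00511 in VCaP and 0.0549 in LAPC4, with 6 of 55 and 10 of 57 libraries closest to their own number). The cause of these shifts was not tested. Of the single members, 477 alternative values stayed on their side of the threshold and 23 no longer passed it. Depth limits PPAN most, with as few as 8 reads in a VCaP library.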
